A study of Mus musculus with 8 samples.

Results

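The 9 genes Cox6a2, Cox7a1, Cox8b, Ckm, Ckmt2, Mb, Fabp3, Pgam2 and Eno3 encode proteins of energy metabolism that striated muscle makes in place of, or in addition to, the forms used by most other cells. They were measured in whole lung as part of 28992 genes or unnamed transcripts, and their probes were found by transcript accession. The 9 genes had 10 probes, 1 each except for Fabp3 with 2, and all 9 passed the filter on dim probes. They were chosen because their levels were known to differ between these groups, so their values, and the calls that fits over all genes gave them, are given as a description from which nothing is read. The study itself also picked Cox8b, Fabp3 and Pgam2 on these arrays.

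Lung RNA came from 8 female BALB/c mice, 2 in each of 4 groups, bought at 4 weeks of age, kept for 2 weeks and then fed for 70 days. NT mice ate standard feed and received no allergen. Ctrl-F mice ate standard feed, Cap-F mice ate feed with 1 mg of carbonate apatite particles per g, and ODNcap-F mice ate feed with 1 mg per g of such particles that enclosed a CpG-oligodeoxynucleotide, a short DNA that activates Toll-like receptor 9. Mice of these 3 groups were sensitized with 1 μg of ovalbumin (OVA) and 2 mg of alum, injected intraperitoneally on Days 42, 49 and 56, then inhaled 2% OVA aerosol from Day 63 to Day 69, and lungs were collected 24 h later. A comparison with NT therefore holds sensitization, challenge and, for Cap-F and ODNcap-F, the particles. The lung was not dissected into cell types, so fewer cells of a type and less RNA per cell cannot be told apart.

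Muscle cells consume adenosine triphosphate (ATP) in bursts and rebuild it in several ways. Cytochrome c oxidase, the last complex of the respiratory chain, carries nuclear-encoded subunits with a muscle form and a widely expressed form. Creatine kinase moves high-energy phosphate from mitochondria to the contractile fibers, myoglobin binds oxygen, the heart-type fatty acid-binding protein carries fatty acids through the cytosol, and phosphoglycerate mutase and enolase are consecutive enzymes of glycolysis. In rodents, cardiomyocytes extend from the left atrium into the wall of the large pulmonary veins, so lung RNA can hold transcripts of striated muscle.

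RefSeq start sites (build GRCm38.p6) were listed for 8 of the 9 genes, and Cox6a2 had no entry. The 250 bases before the start are shown for Cox8b, which had a wide separation between NT and the challenged groups, for Ckmt2, which was near background in some challenged mice, and for Pgam2, the gene whose ODNcap-F mean lay at the NT mean. Each is read 5′ to 3′ on the strand of the gene, and capitals mark E boxes (CANNTG), the sites of myogenic and other basic helix-loop-helix factors, and, in Pgam2, a MEF2 site.
Cox8b, chr7:140900447-140900696, minus strand: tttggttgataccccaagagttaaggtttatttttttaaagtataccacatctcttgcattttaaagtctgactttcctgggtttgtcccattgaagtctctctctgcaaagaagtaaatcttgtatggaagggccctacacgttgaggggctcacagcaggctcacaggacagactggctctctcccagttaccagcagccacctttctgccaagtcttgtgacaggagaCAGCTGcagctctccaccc
Ckmt2, chr13:91876886-91877135, minus strand: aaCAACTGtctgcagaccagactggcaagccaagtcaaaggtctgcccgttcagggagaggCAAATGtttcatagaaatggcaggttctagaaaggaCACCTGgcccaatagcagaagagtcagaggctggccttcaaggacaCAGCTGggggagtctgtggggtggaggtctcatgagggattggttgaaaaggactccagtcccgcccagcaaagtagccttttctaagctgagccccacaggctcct
Pgam2, chr11:5803797-5804046, minus strand: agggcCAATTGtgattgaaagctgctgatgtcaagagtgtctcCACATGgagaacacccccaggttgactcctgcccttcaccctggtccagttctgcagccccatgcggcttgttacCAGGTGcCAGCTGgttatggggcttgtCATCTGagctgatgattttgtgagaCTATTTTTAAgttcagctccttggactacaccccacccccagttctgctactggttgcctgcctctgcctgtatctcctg
In these windows Pgam2 held 5 E boxes, Ckmt2 held 4 and Cox8b held 1, which begins 19 bases before the start. Each of the 8 genes held at least 1 E box, as did 66.2% of 32851 promoter windows of the same length. The MEF2 site, matched by its consensus sequence, was found in Pgam2, 80 bases before the start, and in 2.92% of all windows. The M-CAT element CATTCC was found in Eno3 and in 12.6% of all windows, and the GC box GGGCGG in Ckmt2 and in 32.7%. TATAAA, present in 12.4% of all windows, the estrogen-related receptor site TNAAGGTCA, present in 1.14%, and the CArG box, present in 1.47%, were found in none of the 8 genes. Both strands were searched, and none of the matches in the 8 genes overlapped a match of another motif. Myoglobin had 3 listed starts, all of which were searched.

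All 8 arrays were on 1 slide and were read in 1 scan. Its row 1 carried the NT and Ctrl-F samples and its row 2 the samples of both particle feeds, so that for a comparison across rows, row and group cannot be told apart. On single arrays, 61.3% to 65.0% of the probes were well above background, a mark set by the scanner software, and the lowest log2 signal with this mark was 3.61 to 4.18. Values below are log2 intensities after quantile normalization. Differences are between group means, with the standard error (SE) of a limma fit of all 8 arrays, and calls required a change of more than 2-fold with a p below 0.05 after Benjamini-Hochberg adjustment over all probes.

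The muscle forms of the cytochrome c oxidase subunits were highest in NT, lowest in Ctrl-F and between them in ODNcap-F. Cox6a2, the heart and skeletal muscle form of subunit 6a, measured 11.59 and 11.30 in NT mice, 9.77 and 9.96 in Ctrl-F, 9.95 and 10.30 in Cap-F, and 10.33 and 10.83 in ODNcap-F. The NT mice lay above all challenged mice, and both ODNcap-F mice lay above all mice of Ctrl-F and Cap-F. The level in Ctrl-F was 2.99-fold lower than in NT, a log2 difference of -1.58 (SE 0.21), and that in ODNcap-F was 1.64-fold higher than in Ctrl-F, a log2 difference of 0.71 (SE 0.21).

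Cox7a1, the muscle form of subunit 7a, measured 11.13 and 10.86 in NT mice, 9.86 and 10.01 in Ctrl-F, 9.80 and 10.09 in Cap-F, and 10.15 and 10.49 in ODNcap-F. The order of the groups was that of Cox6a2, with Cap-F and Ctrl-F overlapping. The difference was -1.06 (SE 0.17) between Ctrl-F and NT and 0.38 (SE 0.17) between ODNcap-F and Ctrl-F. Cox8b, a muscle form of subunit 8 that is also made in brown fat, spanned a wider range. It measured 10.14 and 9.74 in NT mice, 6.61 and 6.89 in Ctrl-F, 6.48 and 8.02 in Cap-F, and 7.95 and 8.54 in ODNcap-F. The level in Ctrl-F was 9.13-fold lower than in NT (log2 difference -3.19, SE 0.50), and in ODNcap-F 2.81-fold higher than in Ctrl-F (1.49, SE 0.50). Of the Cap-F mice, mouse 1 was under the Ctrl-F range and mouse 2 within the ODNcap-F range.

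**Figure D1:**
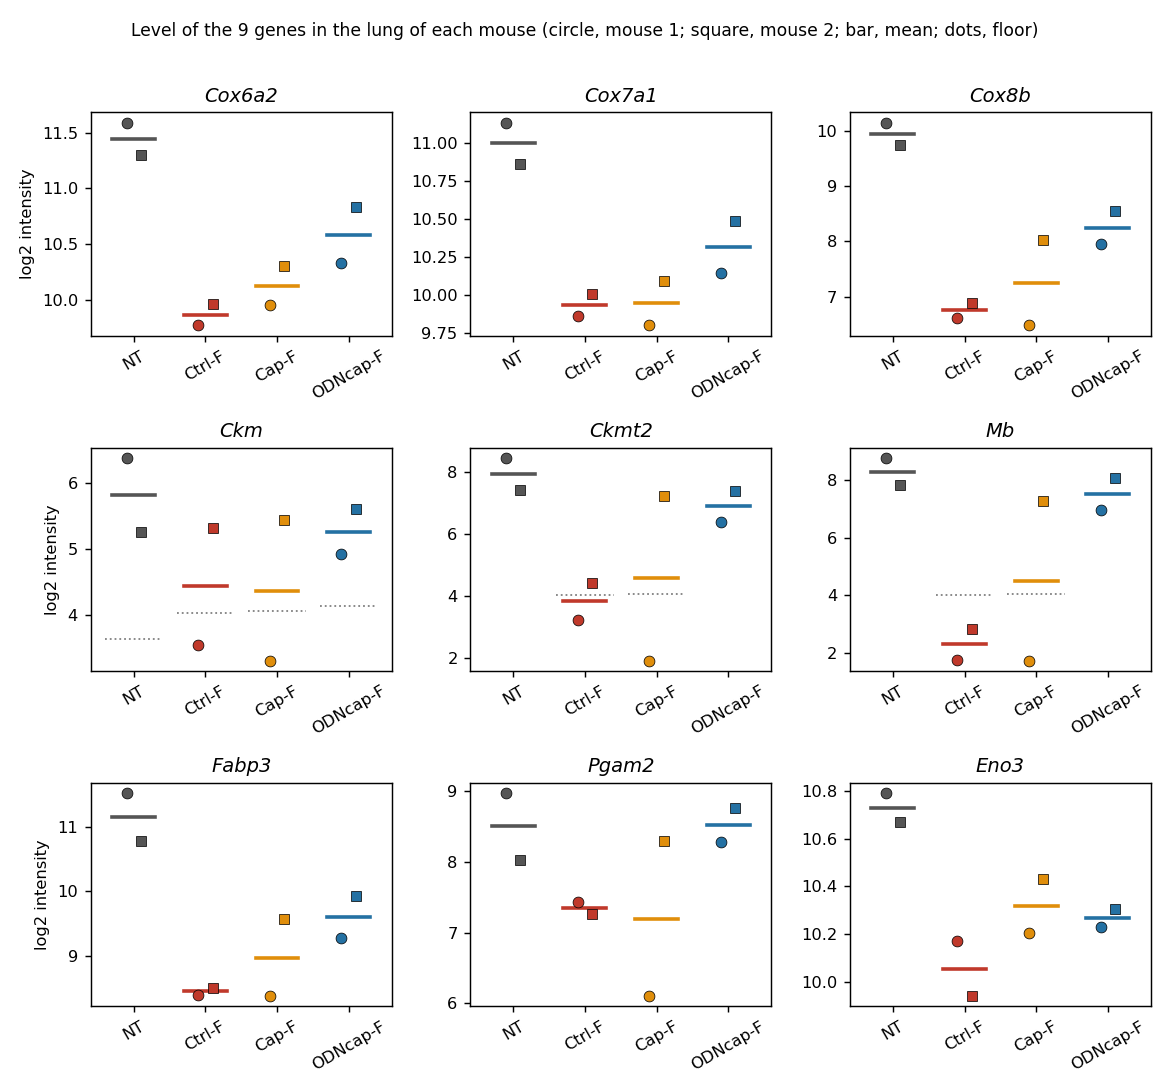
Log2 intensity of each of the 9 genes (vertical axis, one scale per panel) in each mouse of the 4 groups (horizontal axis). Circles are mouse 1, squares mouse 2, bars the group mean, and dotted lines the mean over both arrays of the lowest signal well above background, drawn where a value is under 5.5. Both Ctrl-F mice lie below both NT mice for 8 of the 9 genes, and the Cap-F mice are far apart for Mb, at 1.74 and 7.28.

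The creatine kinases and myoglobin were near or under background in part of the challenged mice. Ckm, the cytosolic muscle creatine kinase, measured 6.37 and 5.25 in NT mice, 3.54 and 5.32 in Ctrl-F, 3.30 and 5.43 in Cap-F, and 4.91 and 5.60 in ODNcap-F. It was well above background on 1 of 2 arrays in Ctrl-F and in Cap-F, and the values of all 4 groups overlapped. Ckmt2, the sarcomeric mitochondrial creatine kinase, measured 8.44 and 7.39 in NT mice, 3.21 and 4.42 in Ctrl-F, 1.90 and 7.21 in Cap-F, and 6.38 and 7.39 in ODNcap-F. It too was well above background on 1 of 2 arrays in Ctrl-F and in Cap-F. Both ODNcap-F mice lay above both Ctrl-F mice, with a log2 difference of 3.07 (SE 1.63), and Ctrl-F lay below NT by -4.10, which was not called. With normexp background correction, which adds an offset to every intensity, these differences of Ckmt2 were 1.23 and -1.95, the latter called. Those of Ckm, 0.83 and -1.38, were then 0.28 and -0.52.

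Mb, the gene of myoglobin, measured 8.77 and 7.82 in NT mice, 1.77 and 2.84 in Ctrl-F, 1.74 and 7.28 in Cap-F, and 6.96 and 8.07 in ODNcap-F. It was not well above background in either Ctrl-F mouse, so the differences from Ctrl-F are bounds. These are computed from the mean of the brighter group and, per Ctrl-F array, the lowest signal well above background or the measured signal, whichever was higher. Relative to Ctrl-F, Mb was at least 19.3-fold higher in NT, and in ODNcap-F the bound was at least 11.3-fold higher. On the log2 scale these bounds are 4.27 and 3.50, and with normexp the differences were smaller than the bounds, -2.46 for Ctrl-F minus NT and 1.87 for ODNcap-F minus Ctrl-F. The ranges of NT and ODNcap-F overlapped, with a log2 difference of -0.78 (SE 1.69).

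Fabp3, the heart-type fatty acid-binding protein, measured 11.52 and 10.78 in NT mice, 8.39 and 8.50 in Ctrl-F, 8.38 and 9.57 in Cap-F, and 9.28 and 9.94 in ODNcap-F on the brighter of its probes. The level in Ctrl-F was 6.53-fold lower than in NT (log2 difference -2.71, SE 0.45). In ODNcap-F it was 2.24-fold higher than in Ctrl-F (1.16, SE 0.45), and both ODNcap-F mice still lay below both NT mice. On the other probe these differences were -2.62 and 1.13.

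The glycolytic enzymes differed from each other in range. Pgam2, the muscle phosphoglycerate mutase, measured 8.97 and 8.03 in NT mice, 7.44 and 7.26 in Ctrl-F, 6.10 and 8.29 in Cap-F, and 8.29 and 8.76 in ODNcap-F. It was the only one of the 9 genes with a higher mean in ODNcap-F than in NT, by 0.02 (SE 0.71), and the values of these groups overlapped. Eno3, the muscle enolase, measured 10.79 and 10.67 in NT mice, 10.17 and 9.94 in Ctrl-F, 10.20 and 10.43 in Cap-F, and 10.23 and 10.31 in ODNcap-F. It had the smallest difference between Ctrl-F and NT of the 9 genes, -0.67 (SE 0.12), and its Cap-F and ODNcap-F mice overlapped.

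All 9 genes had lower means in Ctrl-F than in NT, with a median log2 difference of -1.58 beside -0.12 over all genes tested. Both Ctrl-F mice lay below both NT mice for 8 of the 9 genes, all but Ckm, as for 48.5% of all genes. Cox6a2, Cox7a1, Cox8b, Mb and Fabp3 were called lower, as were 12.2% of all genes. The call of Mb was lost without any 1 of the NT or Ctrl-F mice and without the filter, and that of Cox7a1 with mouse 1 of NT or mouse 1 of Ctrl-F left out, which left 3 calls. In Cap-F against NT the median was -1.45 beside -0.11 over all genes, and Cox6a2, Cox7a1, Cox8b and Fabp3 were called lower, beside 9.87% of all genes. Without Cap-F mouse 2, the count was 7. In ODNcap-F against NT the median was -0.78 beside -0.12, and Cox8b and Fabp3 were called lower, beside 10.8% of all genes. That count was 0 without the first NT mouse or without the first ODNcap-F mouse. With the local-pooled-error test, 8 of the 9 were called lower in Ctrl-F, beside 12.3% of all genes, and 8 in Cap-F, beside 9.91%. These comparisons share the NT mice, and since the genes were chosen on these differences, nothing is read from the counts.

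**Figure D2:**
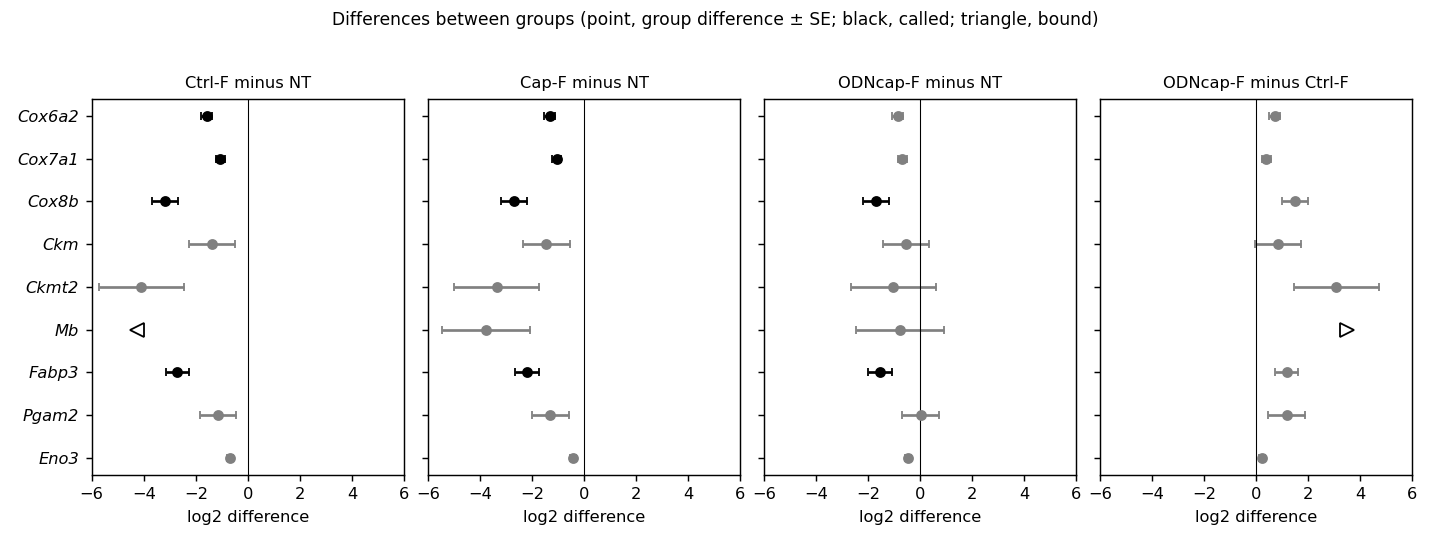
Log2 difference of group means (horizontal axis) for each gene (vertical axis) in 4 comparisons. Points carry the SE of the limma fit, black points passed the call, and open triangles are the bounds for Mb. The differences from NT run from -4.10 for Ckmt2 in Ctrl-F, beside the bound for Mb, to 0.02 for Pgam2 in ODNcap-F, and all 9 lie above 0 in ODNcap-F minus Ctrl-F.

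Between ODNcap-F and Ctrl-F, both of which were challenged, ODNcap-F had the higher mean for all 9, with a median of 1.16 beside -0.01 over all genes. The difference of Ckm turned to -0.06 without Ctrl-F mouse 1. Both ODNcap-F mice lay above both Ctrl-F mice for 8 of the 9 genes, all but Ckm, beside 17.0% of all genes. With limma, none of the 9 and none of all genes was called, while 190 genes (0.655%) changed over 2-fold with an unadjusted p below 0.05, among them Cox8b, Mb and Fabp3, and 4 of the 9 had an unadjusted p under 0.05 at any fold change, beside 6.78% of all genes. The local-pooled-error test, the one the study used, called 5 of the 9 higher in this comparison, beside 0.317% of all genes. That test takes its spread from probes of similar intensity within a group. The difference between the mice of a group for the gene itself does not set it, so its calls do not measure how alike these mice were. Between ODNcap-F and Cap-F, 8 of the 9 means were higher in ODNcap-F, with a median of 0.89 beside -0.01, and both mice of the former lay above both of the latter for Cox6a2 and Cox7a1, beside 21.0% of all genes. None of the 9 was called by limma there, beside 0.00345% of all genes, and 0 had an unadjusted p under 0.05, beside 13.4%. The local-pooled-error test called 3 higher, beside 0.235% of all genes. Between Cap-F and Ctrl-F the median was 0.26 beside 0.00, limma called none of the 9, beside 0.00345% of all genes, 0 had an unadjusted p under 0.05, beside 16.6%, and Eno3 was the one gene with both Cap-F mice above both Ctrl-F mice, beside 25.9% of all genes. The medians did not move with Mb at its bounds.

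Within Cap-F, the 2 mice were far apart. Mouse 2 had the higher value for 9 of the 9 genes, by a median log2 difference of 1.54, from 0.23 for Eno3 to 5.55 for Mb, and 6 of the 9 differed by over 2-fold. Of all genes, 46.2% were higher in mouse 2 and 1.33% by over 2-fold. Mouse 1 was under both Ctrl-F values for 7 of the 9 genes, all but Cox6a2 and Eno3. Mouse 2 lay above both Ctrl-F mice for all 9 and within the ODNcap-F range for 6. Without Cap-F mouse 2, the median of ODNcap-F minus Cap-F was 1.77, and without Cap-F mouse 1, the median of Cap-F minus Ctrl-F was 1.0. NT mouse 2 minus mouse 1 was below 0 for all 9, with a median of -0.74, and ODNcap-F mouse 2 was above mouse 1 for all 9, by a median of 0.59. The Ctrl-F mice were closer and less uniform, with mouse 2 higher for 7 genes and mouse 1 for 2, Pgam2 and Eno3, and a median of 0.19.

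The widely expressed counterparts of these proteins mostly had higher, not lower, means after challenge. Of 12 such genes, all well above background on all 8 arrays, 10 had higher means in Ctrl-F than in NT. Fabp5, the epidermal fatty acid-binding protein, was the one called, at 14.28 and 14.24 in NT against 15.44 and 15.64 in Ctrl-F, a log2 difference of 1.28 (SE 0.09, limma adjusted p = 0.000129). Of all genes 10.5% were called higher. Eno1, the widely expressed enolase, differed by 1.0 (SE 0.06), Ckmt1, the ubiquitous mitochondrial creatine kinase, by 0.93 (SE 0.11), Pgam1 by 0.64 (SE 0.07) and Ckb, the brain-type creatine kinase, by 0.53 (SE 0.07), each with an adjusted p under the threshold in limma but under 2-fold. Cox6a1, Cox7a2 and Cox8a, the widely expressed subunit forms, differed by 0.12, 0.27 and 0.12. Cygb, cytoglobin, another globin of non-muscle cells, was lower by a log2 difference of -0.97 (SE 0.18). Paired with its counterpart, the muscle gene was lower and the counterpart higher in Ctrl-F than in NT for 8 of 9 pairs, with Mb and Cygb the exception. In ODNcap-F minus Ctrl-F the counterparts had a median of -0.02, a range of -0.31 for Ckb to 0.70 for Fabp4, and no call with limma. In that fit 3 had an unadjusted p under 0.05, beside 6.78% of all genes. Fabp4, the adipocyte fatty acid-binding protein, was called higher in ODNcap-F than in NT (1.06, SE 0.22, limma adjusted p = 0.0079), as was Fabp5 (1.04, SE 0.09), beside 9.86% of all genes.

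**Figure D3:**
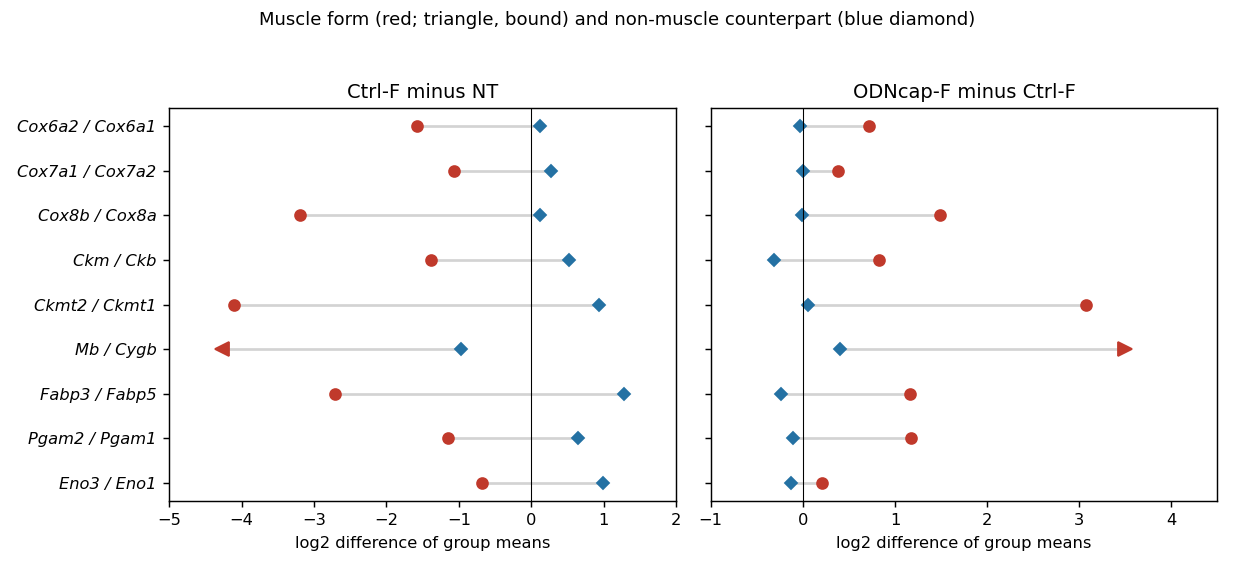
Log2 difference of group means (horizontal axis) of each muscle gene (red, triangles are bounds) and of its widely expressed counterpart (blue diamonds), with a pair on each row, for Ctrl-F minus NT and ODNcap-F minus Ctrl-F. On the left, 8 of 9 counterparts lie above 0 and all muscle genes below. On the right, the counterparts shown lie between -0.31 and 0.40.

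Other genes of the same pathways were mixed. Among 8 further cytochrome c oxidase subunits with a probe, Cox6b2, the testis form of subunit 6b, was the one called in Ctrl-F against NT, with a log2 difference of -1.08 (SE 0.10), and Cox5a differed by 0.82 (SE 0.06) without passing 2-fold. In ODNcap-F minus Ctrl-F these 8 genes lay between -0.11 and 0.08. Of 24 genes of glycolysis and glycogen breakdown, 1 was called higher and 2 lower, beside 10.5% and 12.2% of all genes. Hk2, hexokinase 2, rose by 2.02 (SE 0.10), while Pygm, the muscle glycogen phosphorylase, fell by 1.24 (SE 0.09) and Phkg1, the catalytic subunit of muscle phosphorylase kinase, fell by 1.02 (SE 0.18), a call lost without NT mouse 1 or Ctrl-F mouse 2. Pygm measured 9.49 and 9.35 in NT and between 8.07 and 8.41 in all 6 challenged mice.

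Of 18 genes of fatty acid uptake and oxidation, Slc27a1, a fatty acid transporter, rose in Ctrl-F by 2.46 (SE 0.32), and Pdk4, the kinase that switches off pyruvate dehydrogenase, fell by 1.45 (SE 0.27). Of 9 genes of phosphate and nucleotide shuttles, Gatm, the first enzyme of creatine synthesis, rose by 4.62 (SE 0.15). It measured 6.55 and 6.79 in NT and at least 10.72 in each challenged mouse. Among 12 transcriptional regulators of muscle energy metabolism, of which 11 passed the filter, Ppargc1b (1.27, SE 0.09) and Mef2c (1.09, SE 0.11) rose, the latter not called without Ctrl-F mouse 1, and Ppara, a nuclear receptor that drives fatty acid oxidation, fell by 1.49 (SE 0.17). Perm1, a muscle regulator downstream of the estrogen-related receptors, was called lower but was not well above background in Ctrl-F, and was at least 1.50-fold higher in NT. Its call was lost without NT mouse 1 or Ctrl-F mouse 2. Ppargc1a, a coactivator of mitochondrial biogenesis, differed by 0.42 (SE 0.14) and was not called.

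In all, 12 genes of these 6 lists were called in Ctrl-F against NT, beside 10.5% of all genes called higher and 12.2% called lower. With limma, no gene of these lists was called in any comparison among Ctrl-F, Cap-F and ODNcap-F, beside at most 0.00345% of all genes. In ODNcap-F minus Ctrl-F, the medians of the 6 lists lay between -0.06 and 0.02, beside 1.16 for the 9 muscle genes. Esrrg, a receptor that binds the promoters of muscle metabolic genes, differed there by 0.64 (SE 0.17, limma adjusted p = 0.706), at 4.97 and 4.92 in Ctrl-F and 5.45 and 5.71 in ODNcap-F. Perm1 was not well above background in either of these groups.

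**Figure D4:**
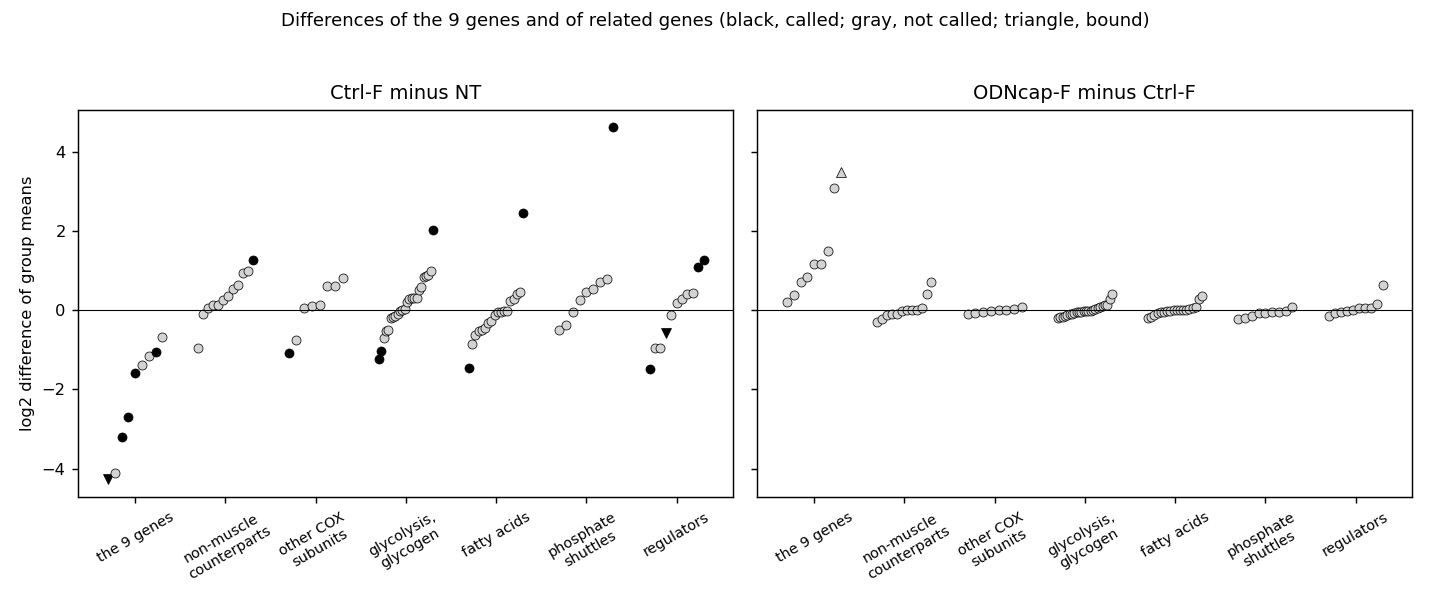
Log2 difference of group means (vertical axis) of the 9 genes and of 6 lists of related genes (horizontal axis, each list sorted by its values), for Ctrl-F minus NT and ODNcap-F minus Ctrl-F. Black points passed the call, gray points did not, and triangles are bounds. Called genes of the related lists lie on both sides of 0 on the left, up to 4.62 for Gatm, and no point is black on the right.

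Most cardiomyocyte markers had the order of group means most common among the 9 genes, from NT over ODNcap-F and Cap-F down to Ctrl-F. Fast skeletal muscle markers were mixed. The gene of the transcription factor Nkx2-5 was not well above background on any array. Of 16 cardiomyocyte genes, 15 passed the filter and 9 were called lower in Ctrl-F than in NT, beside 12.2% of all genes. Of these 9 calls, 2 remained with mouse 1 of NT left out, 6 with mouse 2 of NT left out, 2 with mouse 1 of Ctrl-F and 4 with mouse 2 of Ctrl-F left out. With 1 ODNcap-F array left out, 7 remained, and 5 without the filter. The sum of their intensities was 40800 and 22600 in NT mice, 7750 and 9890 in Ctrl-F, 7990 and 22000 in Cap-F, and 17400 and 25200 in ODNcap-F, and so was low and high in the same Cap-F mice as the 9 genes. Myh6, the atrial and adult mouse heart myosin heavy chain, measured 13.83 and 12.62 in NT mice, 9.06 and 9.92 in Ctrl-F, 8.87 and 12.60 in Cap-F, and 12.05 and 12.85 in ODNcap-F. In ODNcap-F minus Ctrl-F, 15 of the 16 had a higher mean and none was called by limma. In that fit 8 had an unadjusted p under 0.05, beside 6.78% of all genes. The study itself reported Myh6, Myl7, Myl4, Tnnt2, Tnni3, Nppa, Sln, Myom2 and Ttn as higher in ODNcap-F on these arrays. Nothing is therefore read from these counts. Actc1, cardiac actin, had a higher mean in Ctrl-F than in NT, by 0.15 (SE 0.21), and Tbx5 and Ryr2, called lower in Ctrl-F, differed between ODNcap-F and Ctrl-F by 0.07 and 0.05.

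Of 4 ventricular genes, Myl2, the ventricular myosin light chain, was well above background on 2 of 8 arrays and Irx4 on 0. Myl3, another ventricular light chain, was well above it on 6 arrays, at 7.72 and 6.83 in NT mice, 3.57 and 4.30 in Ctrl-F, 2.88 and 6.91 in Cap-F, and 6.34 and 6.52 in ODNcap-F, and was not called. Myh7, the slow myosin heavy chain of heart and skeletal muscle, was well above background on all 8 arrays and was called lower than in NT in each challenged group, at 13.18 and 13.21 in NT and 11.35 to 11.81 in the 6 challenged mice. The summed intensity of the list, in which Myh7 was by far the brightest gene, was 9520 and 9630 in NT mice and 2640 to 3690 in the challenged mice.

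Adipocyte genes were mixed. Of 9, Adipoq, Plin1, Cfd and Cidec were called lower in Ctrl-F than in NT, beside 12.2% of all genes. Retn was called higher, beside 10.5%, although Retn turned to -1.52 when the probes of a gene were averaged. Lep, leptin, and Fabp4 also had higher means in Ctrl-F, by 0.15 (SE 0.15) and 0.36 (SE 0.22), and were not called. Of these 5 calls, 2 remained without NT mouse 1, without either Ctrl-F mouse or without the filter, 1 without NT mouse 2, and 3 without either ODNcap-F mouse. The summed intensity of the adipocyte list was 6220 and 4690 in NT mice, 2370 and 2900 in Ctrl-F, 2050 and 4340 in Cap-F, and 4480 and 6730 in ODNcap-F. Adipoq, adiponectin, was not well above background in Ctrl-F and against it was at least 6.52-fold higher in NT and at least 5.66-fold higher in ODNcap-F. Of 8 brown fat genes, the defining Ucp1 and Elovl3 were well above background on 0 of 8 arrays and the other 6 on all 8. Otop1, a proton channel, was called lower in Ctrl-F than in NT (-1.88, SE 0.16) and Dio2, the deiodinase that activates thyroid hormone, higher (1.33, SE 0.15, a call lost with normexp), both also called in Cap-F and ODNcap-F against NT, and Cidea was not called in any comparison. The summed intensity of this list was 1410 and 1590 in NT mice, 1200 and 1170 in Ctrl-F, 1010 and 1460 in Cap-F, and 1320 and 1780 in ODNcap-F.

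Of 12 fast skeletal muscle genes, 9 passed the filter. In Ctrl-F against NT, Pvalb was called higher, beside 10.5% of all genes, and Myh2 and Casq1 lower, beside 12.2%. Myh2 was well above background in the NT mice alone, and its bound for NT against Ctrl-F was only 1.29-fold. With normexp, the log2 difference of Casq1 was -0.51 and its call was lost. Myh1 was well above background on 0 arrays and Myh4 on 1. Acta1, Tnni2 and Tnnc2 had higher means in Ctrl-F, by 0.49, 0.29 and 0.09, and were not called. Their summed intensity lay between 1140 and 1540 in all 8 mice. Smooth muscle genes, 6 in all, had no call in any comparison with limma, while 1 had an adjusted p under the threshold in Ctrl-F against NT, and their summed intensity lay between 28600 and 44300. What part the share of cardiomyocytes or adipocytes in the dissected lungs had in the values of the 9 genes was not tested.

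**Figure D5:**
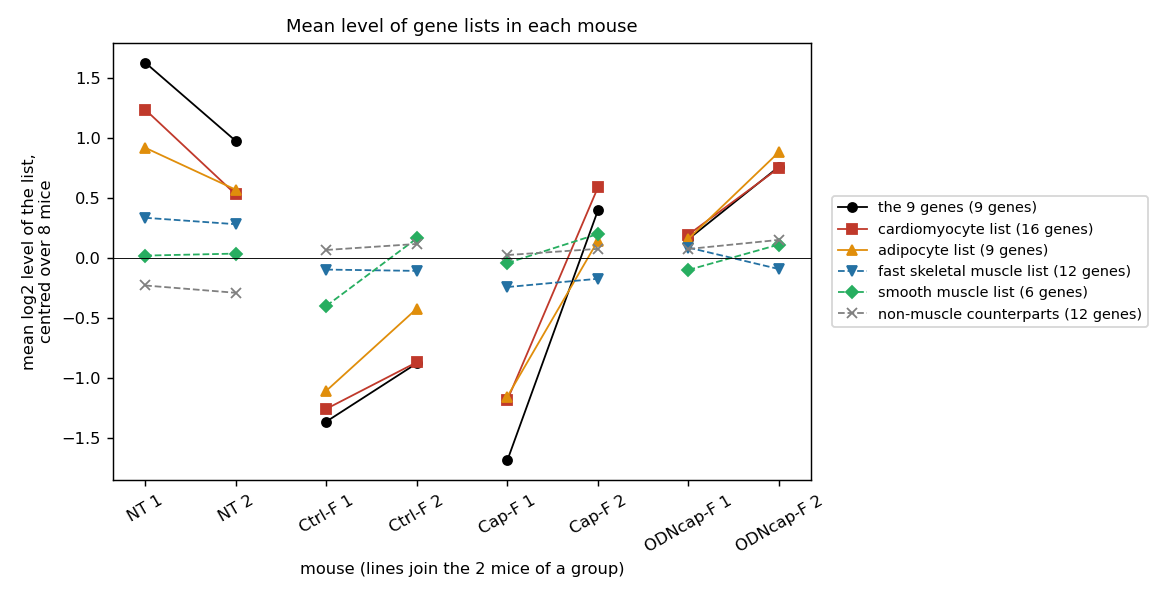
Mean log2 level of a gene list minus its mean over 8 mice (vertical axis) in each mouse (horizontal axis), for the 9 genes, 4 lists of cell type markers and the non-muscle counterparts. Lines join the mice of a group. The 9 genes run from 1.63 in NT mouse 1 to -1.69 in Cap-F mouse 1. In every list shown Cap-F mouse 2 lies above mouse 1. These mice are at 0.59 and -1.18 in the cardiomyocyte list and at 0.08 and 0.03 in the counterparts.

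As a description over 8 arrays that share a slide and a normalization, the pattern of each gene was compared with the mean of the other 8. Pearson's r was lowest for Eno3, 0.80, and highest for Ckmt2, 0.97. Among 16562 other named genes, the 8 with the highest r with the mean centred pattern of the 9 were Tnnc1 (0.99), Kcnj5, Dhrs7c, Myh6, Myh8, Tnnt2, Mapk10 and Myl7 (0.98). Tnnc1 encodes the troponin C of slow and cardiac muscle, Kcnj5 a potassium channel subunit of atrial muscle, and Tnnt2 and Myl7 cardiac troponin T and the atrial regulatory light chain. Tnnc1 measured 7.02 and 6.37 in NT mice, 4.18 and 4.86 in Ctrl-F, 4.13 and 5.77 in Cap-F, and 5.82 and 6.40 in ODNcap-F. Kcnj5 was well above background on 4 of 8 arrays, Dhrs7c on 5, and Tnnc1 and Mapk10 on 6. The r of these genes therefore rests in part on values near or under background. Myh6, Myh8, Tnnt2 and Myl7 were well above it on all 8.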

How the data were processed

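Lung RNA of 8 mice was hybridized to single-color Agilent arrays, 1 array per mouse. The authors deposited the background-subtracted intensity of each spot from Agilent Feature Extraction 11.0, without normalization between arrays, and a log2 table of 32312 probes that the authors made by log transformation and quantile normalization, each probe well above background on all 8 arrays. The number of arrays limits the precision. Replicates are separate mice, 2 per group.

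Control spots were left out, 792 flagged spot values were set to missing, and log2 intensities were averaged per probe (56605 probes) and quantile normalized. A probe was kept if the 2 arrays of any group were both well above background (37116 probes). Genes were named through RefSeq accessions (65.4% of kept probes), and the brightest probe stands for a gene. The 4 groups were fitted together over all arrays without covariates in limma 3.58.1 (R 4.3.3). limma replaced the local-pooled-error test of the study, which pools the spread over probes of similar intensity and was rebuilt as an alternative. Other alternatives were scaling to the 75th percentile, normexp with an offset of 50, the deposited table, other filters, an intensity trend, fits of the 2 groups compared, the mean of a gene's probes, the replicate number as a block, and each array left out.

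The 9 genes and all lists were chosen with earlier results of these data known. Named were the 9 genes, the counterparts, the 3 largest called differences in Ctrl-F against NT of each other list and members that a result turns on, the marker lists, and the 8 genes of most similar pattern. Regulators Ppargc1a, Mef2c and Esrrg and the subunit Cox5a were named after their values were seen.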

Additional observations from a re-analysis of the deposited data

How the results depend on the processing

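All values are log2 differences or counts of the 9 genes. With the local-pooled-error test, 8 of the 9 genes were called in Ctrl-F against NT (12.3% of all genes lower) and 8 in Cap-F against NT (9.91%), 5 in ODNcap-F against Ctrl-F and 3 in ODNcap-F against Cap-F, where limma called 5, 4, 0 and 0. Without a filter, the count in ODNcap-F against NT was 0. With scaling to the 75th percentile, 19 other metabolic genes were called in Ctrl-F against NT in place of 12. Retn, Ctrl-F against NT, turned from 1.05 to -1.52 with the mean of a gene's probes, and no other named call reversed under the alternatives run. Causes were not tested.

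With each array left out in turn, the lone mouse left in its group was taken to have the spread of the other groups. Counts then ran from 3 to 7 in Ctrl-F against NT, 3 to 7 in Cap-F against NT and 0 to 2 in ODNcap-F against NT, and stayed at 0 among the challenged groups. Other metabolic genes called ran from 10 to 16. Medians ran from -2.27 to -1.44 for Ctrl-F minus NT, -2.51 to -0.91 for Cap-F minus NT, -1.12 to -0.51 for ODNcap-F minus NT, 0.83 to 1.41 for ODNcap-F minus Ctrl-F, 0.22 to 1.77 for ODNcap-F minus Cap-F and -0.27 to 1.0 for Cap-F minus Ctrl-F, which changed sign without Cap-F mouse 2.

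The replicate numbers of the titles were tried as a block. Correlations of the differences between mouse 1 and mouse 2 across groups ran from -0.01 to 0.16, highest for Cap-F with ODNcap-F. Whether mice with the same number share more than the number was not tested. With the replicate block the counts were 5 in Ctrl-F against NT, 4 in Cap-F against NT, 2 in ODNcap-F against NT and 0 in the other comparisons, and 12 other metabolic genes were called.

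The deposited table holds no probe of Ckm, Ckmt2 or Mb, so its medians cover 6 genes. Mb, Ckm and Ckmt2 lie near the lowest signal well above background in Ctrl-F, which limits how large their differences can be shown to be.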
